A study of Mus musculus with 2 samples.

Results

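The glucose uptake and glycolysis genes described here are 10 mouse genes that take up glucose or turn it into lactate. They are the glucose transporter Slc2a1, the hexokinases Hk1, Hk2 and Hk3, the phosphofructokinase subunit Pfkl, its regulator Pfkfb3, and the lower-pathway enzymes Pgk1, Eno1, Pkm and Ldha. They were chosen by gene symbol, all 10 symbols matched, and they are 10 of the 55536 annotated genes in the tables.

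Ribo-depleted RNA from the chromatin fraction, which is rich in unfinished and still unspliced transcripts, was sequenced from bone-marrow-derived macrophages of C57BL/6J mice. These are primary cells grown from marrow, and the labels record neither sex nor age. All cells had 100 ng/ml of lipid A (the active part of bacterial endotoxin) during 12 hours, then 12 hours without it, and then the same dose again over 75 minutes. The series holds this group alone, in 2 libraries made from 250 ng (replicate 1) and 500 ng (replicate 2) of RNA, so there is no untreated control and no effect of lipid A can be read from it. The labels call the libraries biological replicates but give both the same donor entry and name no separate cultures, so the spread between them may be technical.

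Glucose enters the cell through transporters of the SLC2A family and is trapped by hexokinases, which add a phosphate to it. Phosphofructokinase makes the first step that commits the sugar to glycolysis, and PFKFB enzymes set its pace by making and removing its activator in a side reaction. The lower pathway gains ATP at the phosphoglycerate kinase and pyruvate kinase steps, and lactate dehydrogenase turns pyruvate into lactate. Macrophages that sense endotoxin are known for a shift towards this route.

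The libraries held 18388793 (replicate 1) and 17640464 (replicate 2) expected counts on annotated genes, and levels are given in TPM, which is a share of the library per transcript length. Errors are SDs over the 2 libraries, and intervals are exact 95% intervals that cover counting error only. The 10 macrophage marker genes checked were all at 1 TPM or more in both libraries, with a median of 89.6 TPM. Of 12 markers of other cells, 9 were at 0 in both libraries, and together the list summed to 1.32 TPM in replicate 1 and 1.17 TPM in replicate 2. Alignment-free quantification, made from the reads without an alignment, put 4 of the 12 at 0 and the sum at 11.5 TPM in replicate 1 and 13.6 in replicate 2, with Pecam1, an endothelial marker that leukocytes also carry, at 7.20 and 8.96 TPM. With bulk RNA, fewer cells and less RNA per cell cannot be told apart.

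All 10 genes were at 1 TPM or more in both libraries, where 40.1% of the 22028 protein-coding genes were. Their levels spanned 2 orders of size. Hk3 stood far above the rest at 329 ± 2.69 TPM, and Slc2a1 was lowest at 2.84 ± 0.863 TPM. The median of the 10 mean levels was 12.0 TPM. Taken per library it was 10.7 TPM in replicate 1 and 14.2 TPM in replicate 2, with an SD of 2.48 TPM. Over the 9615 protein-coding genes that reached 1 TPM in at least 1 library, the median of the mean levels was 7.99 TPM. Of the 10 genes, 7 lay above that median. Hk3 alone made up 70.5% of the summed TPM of the 10 genes in replicate 1 and 64.8% in replicate 2.

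**Figure D1:**
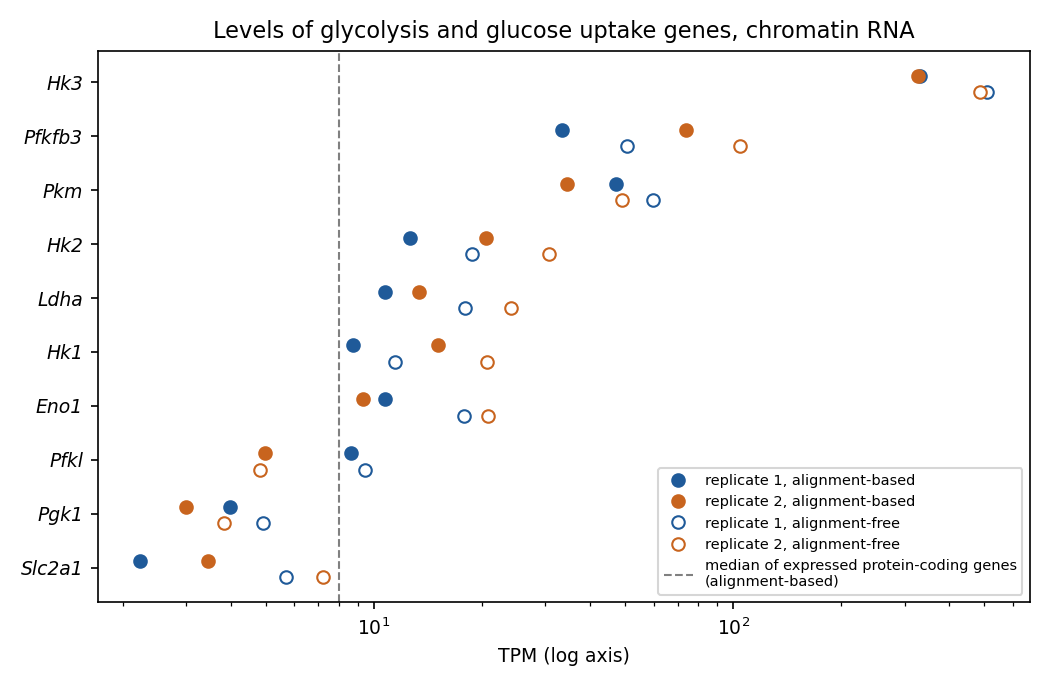
TPM (log axis) of each of the 10 genes in replicate 1 and replicate 2, with filled points for alignment-based and open points for alignment-free values, genes ordered by mean alignment-based level, and a dashed line at the median of expressed protein-coding genes (7.99 TPM). Hk3 stands alone at the top with 331 and 327 TPM by alignment, and Slc2a1 and Pgk1 are lowest, between 2.23 and 3.96 TPM.

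In the order of mean levels, Hk3 was followed by Pfkfb3, Pkm, Hk2, Ldha, Hk1, Eno1, Pfkl, Pgk1 and Slc2a1. The libraries' values did not overlap between Hk3 and Pfkfb3, Pkm and Hk2, Eno1 and Pfkl, or Pfkl and Pgk1. They overlapped between Pfkfb3 and Pkm, Hk2 and Ldha, Ldha and Hk1, Hk1 and Eno1, and Pgk1 and Slc2a1. Within a library, Hk2 was above Ldha in replicate 1 (12.6 against 10.7 TPM) and in replicate 2 (20.4 against 13.4 TPM). The order within the other overlapping pairs reversed between the libraries, so it is not settled by them.

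Slc2a1 encodes GLUT1, the transporter that most cells use for basal glucose uptake, and lies at chr4:119108711-119137983 on the plus strand of mm10. It had 2.23 TPM in replicate 1 and 3.45 TPM in replicate 2, from 115 and 150 counts. Its mean of 2.84 TPM was low for an expressed gene, at percentile 24.4 of the expressed protein-coding genes. By alignment its coding isoform Slc2a1-201 carried most of this, with 2.23 TPM in replicate 1 and 3.03 TPM in replicate 2. The alignment-free values of Slc2a1-201 were 1.28 TPM of the gene's 5.70 TPM in replicate 1 and 1.91 of 7.19 TPM in replicate 2.

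Slc2a1 was a minor transcript of its own family. Slc2a1 gave 1.39 ± 0.404% of the summed TPM of the SLC2A genes measured, against 95.7 ± 0.623% for Slc2a6. Slc2a6, which encodes a lysosomal transporter of the family, had 193 TPM in replicate 1 and 199 TPM in replicate 2, which is 86.6 and 57.5 times the Slc2a1 level. The alignment-free table put the Slc2a6 level at 34.2 and 26.8 times that of Slc2a1. Slc2a9, a urate transporter, had 5.96 TPM in replicate 1, above Slc2a1, and 2.85 TPM in replicate 2, below it, while the high-affinity glucose transporter Slc2a3 had 0.38 and 0.27 TPM. Of the 10 other transporters, Slc2a2, Slc2a4, Slc2a10 and Slc2a13 were at 0 counts in both libraries by alignment, where a count of 0 allows up to 3 counts per library for counting error alone. The alignment-free table had only Slc2a4 at 0, and gave Slc2a13 94 counts in replicate 1 and 80 in replicate 2.

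Hk1, Hk2 and Hk3 catalyse the same reaction and differ in where they sit. The first residues of the Hk1 and Hk2 proteins bind the outer mitochondrial membrane, and Hk3 lacks that anchor. The first 60 coding bases of the main coding transcripts are shown because they hold that difference. They were read from the GENCODE M21 transcripts, 5′ to 3′, from genes on the minus strands of chromosomes 10 (Hk1), 6 (Hk2) and 13 (Hk3). Capitals mark bases that Hk1-202 and Hk2-201 have in common at that position, and in the Hk3 lines bases that match them.
Hk1-202: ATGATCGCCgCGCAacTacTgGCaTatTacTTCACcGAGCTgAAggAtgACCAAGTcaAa
Hk2-201: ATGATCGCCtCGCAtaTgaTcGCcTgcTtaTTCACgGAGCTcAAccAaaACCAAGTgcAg
Hk3-201: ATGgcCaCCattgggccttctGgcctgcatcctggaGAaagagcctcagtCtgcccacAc
Hk3-208: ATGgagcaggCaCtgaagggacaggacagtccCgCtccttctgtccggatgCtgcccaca
Hk1-202 and Hk2-201 had 40 of these 60 bases in common, and the Hk3 starts, compared without gaps, matched them at 11 (Hk3-201) and 8 (Hk3-208) positions. Over the whole aligned coding sequence, Hk3 was 60.9% identical (Hk3-201) to Hk1 and 63.7% to Hk2, and Hk2 was 71.2% identical to Hk1. The longest runs in common were 20, 23 and 27 bases, and the deposited posterior SD of the gene count was 0 for all 3 genes in both libraries.

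Hk3, at chr13:55005985-55021385 on the minus strand, is the hexokinase best known from blood cells of the myeloid line. It had 331 TPM in replicate 1 and 327 TPM in replicate 2, from 12623 and 10386 counts. It ranked 94 of the 9615 expressed protein-coding genes by mean TPM, and its libraries were closer together than those of the other hexokinases. Hk2, the inducible hexokinase (chr6:82725025-82774454, minus strand), had 12.6 TPM in replicate 1 and 20.4 TPM in replicate 2. Hk1, the hexokinase of most tissues (chr10:62268855-62379908, minus strand), had 8.73 and 15.0 TPM. Both were higher in replicate 2. Gm17034, antisense inside Hk2, had 80 and 129 counts, and since the strand setting is unknown its reads and those of Hk2 cannot be told apart.

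Hk3 therefore gave 93.9% of the hexokinase TPM in replicate 1 and 90.2% in replicate 2 (92.1 ± 2.64%). Hk2 gave 4.61 ± 1.46% and Hk1 gave 3.32 ± 1.18%. The Hk3 level was 26.3 and 16.0 times that of Hk2, and 37.9 and 21.7 times that of Hk1. Hk2 exceeded Hk1 in both libraries, by 1.44 and 1.36 times. Hkdc1, a further gene of the family, had 1 count in each library.

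**Figure D2:**
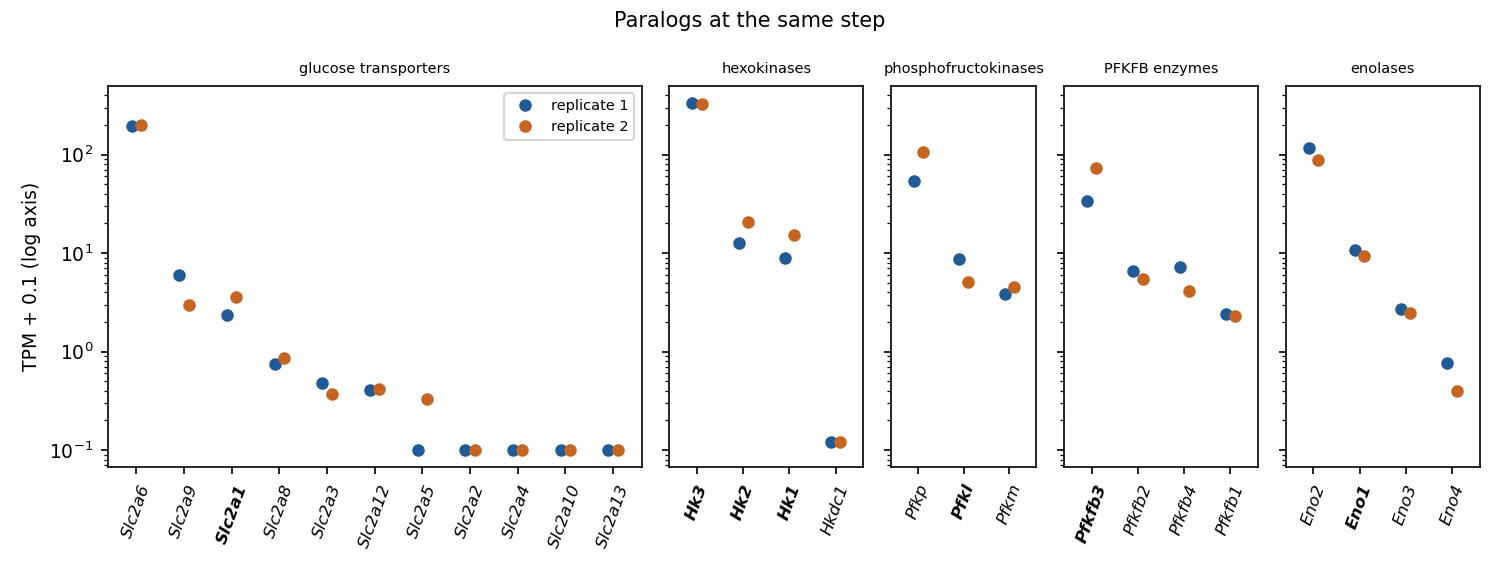
TPM + 0.1 (log axis) of each paralog in replicate 1 and replicate 2, in 5 enzyme or transporter families, with the genes described here in bold and 1 hexokinase paralog not shown. Hk3 (331 and 327 TPM) and Pfkfb3 (33.3 and 73.7 TPM) lead their families, while Slc2a6, Pfkp and Eno2 lie above Slc2a1, Pfkl and Eno1 in both libraries.

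Pfkl encodes the liver-type subunit of phosphofructokinase and lies at chr10:77986947-78010083 on the minus strand. It had 8.61 TPM in replicate 1 and 4.97 TPM in replicate 2, from 245 and 135 counts. Its platelet-type paralog Pfkp had 54.1 TPM in replicate 1 and 106 TPM in replicate 2. Pfkl gave 8.64 ± 6.12% of the phosphofructokinase TPM, against 86.7 ± 7.38% for Pfkp and 4.70 ± 1.26% for the muscle-type Pfkm. The ratio of the pair differed between the replicates, and the Pfkp level was 6.28 times that of Pfkl in replicate 1 and 21.3 times in replicate 2.

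Pfkfb3 makes the phosphofructokinase activator and has, of the PFKFB enzymes, the strongest bias towards making it. The gene lies at chr2:11471433-11554077 on the minus strand. It had 33.3 TPM in replicate 1 and 73.7 TPM in replicate 2, from 805 and 1544 counts. It led its family in both libraries, with 67.8% of the PFKFB TPM in replicate 1 and 86.4% in replicate 2. Pfkfb2 had 6.43 and 5.36 TPM, and Pfkfb4 had 7.14 and 4.04 TPM.

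Pgk1, which makes the first ATP of the pathway (chrX:106187100-106203699, plus strand), had 3.96 TPM in replicate 1 and 3.0 TPM in replicate 2. Eno1, the enolase of most tissues (chr4:150236721-150248879, plus strand), had 10.7 TPM in replicate 1 and 9.31 TPM in replicate 2. Eno1 gave 8.76 ± 0.784% of the enolase TPM, against 88.6 ± 0.914% for Eno2, the enolase best known from neurons. Eno2 had 116 TPM in replicate 1 and 88.0 TPM in replicate 2, which is 10.9 and 9.45 times the Eno1 level. Reads that fit more than 1 entry give these counts a posterior SD, which was 6.62 and 5.95 for Pgk1 and 3.25 and 2.99 for Eno1. Pgk1 was the only phosphoglycerate kinase with counts, and its testis paralog Pgk2 had 0 in both libraries.

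Ldha, whose subunit favours making lactate (chr7:46841475-46855627, plus strand), had 10.7 TPM in replicate 1 and 13.4 TPM in replicate 2, from 137 and 184 counts. The heart-type Ldhb and the testis-type Ldhc had 0 counts in both libraries.

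Pkm encodes pyruvate kinase and lies at chr9:59656368-59679375 on the plus strand. It had 47.2 TPM in replicate 1 and 34.5 TPM in replicate 2, and the liver and red-cell paralog Pklr had 0 counts. Pkm transcripts carry one of a pair of mutually exclusive exons, which give the M1 and the M2 enzyme. Both exons are exon 9 of 11 in their transcript and 167 bases long, and they are shown because they are what tells the isoforms apart. Pkm-202 carries the upstream M1-type exon at chr9:59675029-59675195, and Pkm-201 the downstream M2-type exon at chr9:59675568-59675734, in mm10, plus strand. Capitals mark the 64 bases that differ between them, and 61.7% of the positions are identical.
Pkm-202: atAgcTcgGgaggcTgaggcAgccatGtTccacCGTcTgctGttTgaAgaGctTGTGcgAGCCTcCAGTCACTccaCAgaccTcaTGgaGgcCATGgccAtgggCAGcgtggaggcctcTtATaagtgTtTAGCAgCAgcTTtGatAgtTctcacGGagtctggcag
Pkm-201: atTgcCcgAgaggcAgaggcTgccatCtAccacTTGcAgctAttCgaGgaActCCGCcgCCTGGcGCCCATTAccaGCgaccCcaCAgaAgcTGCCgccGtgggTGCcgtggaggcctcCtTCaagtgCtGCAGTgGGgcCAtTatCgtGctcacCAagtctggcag
Pkm-201 had 15.6 TPM in replicate 1 and 11.5 TPM in replicate 2, and Pkm-202 had 7.56 and 8.13 TPM. The M2-type transcript was thus higher in both libraries, by 2.06 and 1.41 times, and by 2.04 and 1.42 times in the alignment-free table. The deposited posterior SD of the Pkm-201 count was 33.4 of 580 in replicate 1 and 30.1 of 390 in replicate 2, and that of the Pkm-202 count was 37.8 of 231 and 34.0 of 226. These shares carry a limit: chromatin RNA is partly unspliced and can hold both exons. Both exons also lie inside Gm49759, an unverified gene on the same strand with 627 counts in replicate 1 and 400.4 in replicate 2.

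Of the 10 genes, 7 have isoforms annotated with a retained intron, and so do 5998 of the 9272 protein-coding genes with a mean of 1 TPM or more. In Pfkfb3 and Eno1 such isoforms held more than 50% of the gene's TPM, at 57.0 ± 0.117% and 57.0 ± 0.128%. Of the 5998 protein-coding genes with such an isoform and a mean of 1 TPM or more, 41.8% passed the same mark. The share was 44.1 ± 9.37% in Pfkl, 32.7 ± 4.35% in Pkm, 28.8 ± 13.0% in Ldha, 28.5 ± 1.16% in Hk1 and 24.7 ± 19.8% in Pgk1. In the alignment-free table it was 37.3% in Pfkl, 14.7% in Pkm, 41.8% in Ldha, 17.2% in Hk1 and 45.0% in Pgk1, so the order of these genes is not settled. The median of the share over the 5998 genes was 45.1%. Hk2, Hk3 and Slc2a1 have no such isoform in the annotation.

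TPM divides by transcript length and a count does not. By expected counts the retained-intron share was 28.6% in Pfkfb3, 43.1% in Eno1, 20.6% in Pfkl, 15.7% in Ldha and 9.73% in Pgk1. It was 22.4% in Hk1, and in Pkm it was 33.8% by counts against 32.7% by TPM, so it did not fall there. The leading one in Pfkfb3, Pfkfb3-211, is 646 bases long and had 7.58 TPM in replicate 1 and 17.9 TPM in replicate 2. The Pkm isoform Pkm-205 had 15.8 and 9.97 TPM, about the level of the leading coding isoform Pkm-201. In Eno1, Eno1-203 had 1.99 and 2.11 TPM and keeps 2 whole introns, one of them chr4:150241141-150241766. The leading retained-intron isoforms of Pfkl, Ldha, Hk1 and Pgk1 lay below those of Pfkfb3 and Pkm. Pfkl-203 had 2.22 TPM in replicate 1 and 1.01 TPM in replicate 2, Ldha-211 had 2.11 and 1.25 TPM, Hk1-220 had 1.39 and 2.10 TPM, and Pgk1-202 had 1.53 and 0.32 TPM.

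In these genes the label "retained intron" covered mostly transcripts with a start or an end inside an intron. Of the 20 such transcripts of the 7 genes, 2 (Eno1-203 and Eno1-207) keep a whole intron of a coding transcript, and 18 keep none. Over all protein-coding genes with a mean of 1 TPM or more, 68.7% of the 15789 annotated transcripts of this class keep none. A start or an end inside an intron of a coding transcript was found in 19 of the 20. The same share over all genes was not computed, so this count has no background beside it. Reads of unfinished transcripts and reads of such isoforms cannot be told apart in these tables.

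**Figure D3:**
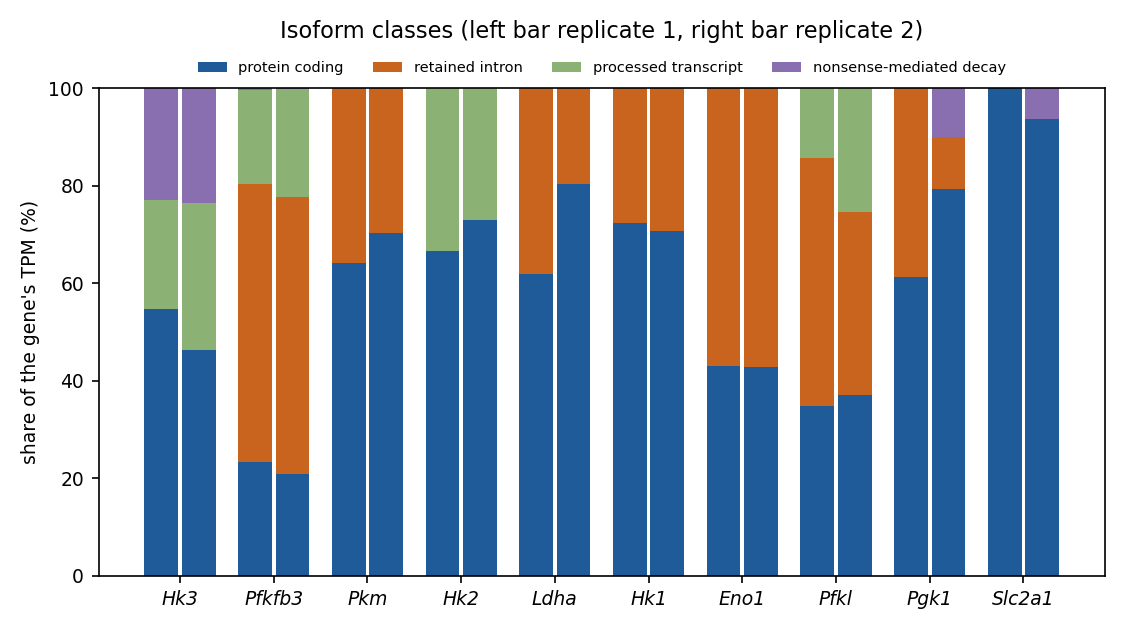
Share of each gene's TPM, in percent, held by each annotated transcript class, with replicate 1 as the left and replicate 2 as the right bar of each gene. Retained-intron isoforms hold 57.0% on average of the TPM of Pfkfb3 and of Eno1, and Hk3, Hk2 and Slc2a1 have none.

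Hk3 itself was spread over several isoforms. Coding isoforms held 50.5 ± 5.84% of its TPM, isoforms annotated for nonsense-mediated decay 23.2 ± 0.477%, and processed transcripts without a reading frame 26.3 ± 5.36%. In the alignment-free table the mean shares were 40.0%, 9.91% and 50.1%, and by expected counts they were 65.1%, 30.7% and 4.27%, so the order of the classes depends on the measure. Hk3-208 had 106 TPM in replicate 1 and 102 TPM in replicate 2, Hk3-201 had 67.1 and 44.6 TPM, and the decay isoform Hk3-204 had 75.7 and 77.0 TPM. The short processed transcript Hk3-205, of 639 bases, had 56.7 and 75.1 TPM. The programs differed widely on Hk3-207, a processed transcript of 435 bases, with 17.7 and 23.2 TPM by alignment and 165 and 148 TPM without.

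By mean alignment-based TPM the leading isoform was a coding one in each gene but Pfkfb3. In Pkm this held for the mean but not for replicate 1, and in the alignment-free table a non-coding isoform also led in Hk3, Eno1, Pgk1 and Ldha. The values that follow are alignment-based. Hk2-201 had 7.44 TPM in replicate 1 and 11.8 TPM in replicate 2, and Ldha-202 had 3.22 and 5.34 TPM. Eno1-201 had 3.08 and 3.14 TPM, and Pgk1-201 had 2.43 and 2.38 TPM. In Hk1 the leading one, Hk1-212, is 896 bases long and had 3.35 and 5.20 TPM, ahead of the longer Hk1-202 with 1.15 and 3.20 TPM.

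Counting coding isoforms alone left Hk3 first, at 166 ± 20.6 TPM, and Pkm second, at 27.3 ± 4.24 TPM. Pfkfb3, with 7.77 TPM in replicate 1 and 15.3 TPM in replicate 2, then lay beside Hk2, with 8.38 and 14.9 TPM, and their order differed between the libraries. Coding isoforms of Pgk1, Pfkl and Slc2a1 were at 2.41, 2.42 and 2.73 TPM on average.

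How far the libraries differ was read from a log2 ratio, replicate 2 over replicate 1, of TMM-scaled counts, and no test stands behind it. Of the 10 genes, 2 were past 2-fold, where 7.29% of the 13227 genes with 10 counts or more per library were past it. Both were higher in replicate 2, as were 4.08% of all genes, and 0 of the 10 were lower past 2-fold, against 3.21% of all genes. Pfkfb3 had a log2 ratio of 1.07 (interval 0.95 to 1.20). Hk1, at 1.00 (0.78 to 1.23), lay at the mark itself. Fewer of the 10 passed it under most other scalings, and 0 did with total counts or in the alignment-free table, where Pfkfb3 was at 0.97 and Hk1 at 0.75. The median absolute log2 ratio was 0.54 over the 10 genes and 0.32 over all genes, so the 10 genes differed more between the libraries than a typical gene did. Over the 8715 genes with at least the mean count of the lowest of the 10, it was 0.28, and 4.97% were past 2-fold.

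Hk2 was also higher in replicate 2, with a log2 ratio of 0.65 (0.51 to 0.80), and so were Ldha at 0.56 and Slc2a1 at 0.52. Pfkl was lower in replicate 2, at −0.73 (−1.04 to −0.42), and so were Pkm at −0.41 and Hk3 at −0.15. The intervals of Eno1, at −0.12 (−0.43 to 0.20), and Pgk1, at −0.07 (−0.56 to 0.42), included 0. Intervals that leave out 0 were found for 8 of the 10 genes and for 47.6% of all genes, so the counts of these libraries differ by more than counting error across much of the genome. The 2 shares are not matched for depth, since all genes include ones with fewer counts, and so wider intervals, than any of the 10.

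Genes known to respond to endotoxin also differed between the libraries. Of 14 such genes, 13 had a ratio, all 13 were higher in replicate 2, 8 of them past 2-fold, and their median log2 ratio was 1.32. The 10 macrophage markers were mixed, with a median log2 ratio of −0.47. Of these, 7 were lower in replicate 2, 3 of them past 2-fold, and 3 were higher, none past 2-fold. The starting RNA also differed, at 250 ng in replicate 1 and 500 ng in replicate 2. Of the 10 genes described here, 5 had a ratio above 0 and 5 below 0. The part of each of these differences in their ratios was not tested.

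**Figure D4:**
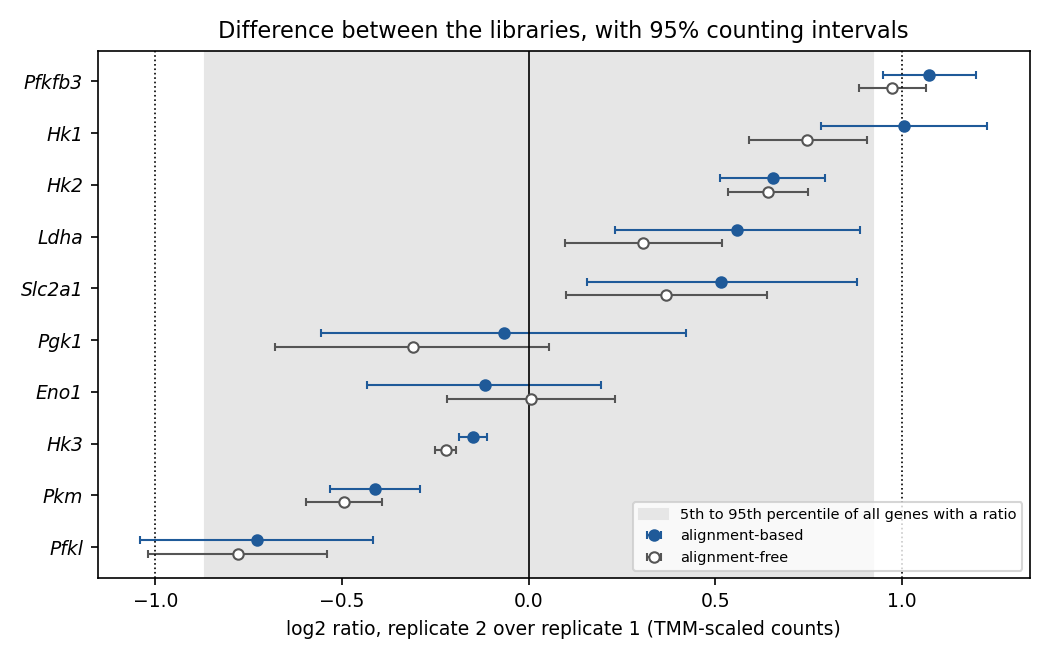
Log2 ratio of replicate 2 over replicate 1 for each of the 10 genes, from alignment-based (filled) and alignment-free (open) counts, with 95% counting intervals as bars, dotted lines at 2-fold and a grey band from the 5th to the 95th percentile of all genes with a ratio (−0.87 to 0.92). By alignment, Pfkfb3 and Hk1 lie past the upper 2-fold line at 1.07 and 1.00, and Pfkl is the lowest at −0.73.

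Other genes of the pathway were read from 3 further lists. Of 21 other glycolytic enzymes, 10 were at 1 TPM or more in both libraries and 5 were at 0 counts in both. Behind Eno2 (102 ± 20.1 TPM) and Pfkp (79.9 ± 36.6 TPM), the aldolase Aldoa had 22.6 ± 2.56 TPM and Gapdh, which makes the NADH of the pathway, had 20.9 ± 2.81 TPM. Of the 10 genes, Hk3, Pfkfb3 and Pkm had higher mean levels than Gapdh by alignment, while 7 of the 10 did in the alignment-free table, where Gapdh averaged 13.0 TPM. That table put 2 of the 21 enzymes at 0 and 13 at 1 TPM or more in both libraries.

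Of 18 regulators and branch enzymes, 9 were at 1 TPM or more in both libraries and 3 (Pdk4, Fbp1 and Fbp2) were at 0 by alignment. Pdk4 was not at 0 in the alignment-free table, with 1.67 TPM in replicate 1 and 2.63 TPM in replicate 2. By alignment the transketolase gene Tkt had the highest mean, 7.74 ± 0.516 TPM, and G6pdx, the first enzyme of the pentose phosphate branch, had 6.58 ± 1.67 TPM. The alignment-free table put Pfkfb2 first at 16.3 TPM, with Tkt at 9.63 TPM. Of 10 paralogs known from other tissues, 6 were at 0 counts in both libraries by alignment, and Eno3, the muscle enolase, was highest at 2.50 ± 0.156 TPM. Without alignment, 2 were at 0, and Pgam2, a muscle phosphoglycerate mutase, averaged 5.88 TPM, above Eno3 at 3.54 TPM. Over the 49 other transporters, enzymes and regulators, 25 genes had a replicate ratio, their median log2 ratio was −0.19, and 0 were past 2-fold, though Pfkp came close at 0.96 (0.89 to 1.03).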

How the data were processed

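Tables of 2 kinds were used. The deposited expected counts per gene and transcript, with a posterior SD, were made from alignments to the mm10 transcriptome with GENCODE M21, per the submitters' description files. The deposited TPM values were scaled by the authors over all entries of a library. Column names are those RSEM writes, per the file headers. The deposited estimated counts of the second table were made without alignment, under kallisto's column names. No source used here gives the program versions or the strand setting.

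The members, gene lists and measures were chosen with earlier results of these data known. Ratios used rounded expected counts with TMM scaling (edgeR 4.0.16, R 4.3.3) where each library had 10 counts or more. The ratio step was tested on simulated counts that held counting noise only. Intervals are exact conditional binomial intervals and were not tested on simulated data. DESeq2 1.42.0 size factors were an alternative. With 1 group no test was made. Coding sequences were aligned with biopython 1.88. All 10 members are named. Of other lists, the 4 highest and the lowest by mean TPM, and any gene past 2-fold with enough counts, could be named; of marker lists, counts and ranges. Aldoa has a pair of gene IDs, and the lower one was used. Of transcripts, the leading one and the leading retained-intron one per gene could be named; the other Hk3, Hk1 and Pkm transcripts and Eno1-207 were chosen after their values were seen. The values of 1 hexokinase paralog are not reported here.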

Additional observations from a re-analysis of the deposited data

How the results depend on the processing

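The median level of the 10 genes was 20.1 TPM in the alignment-free table, 44.1 TPM when TPM was rescaled over protein-coding genes alone and 14.9 TPM by posterior mean, against 12.0 TPM, and it was 10.7 to 14.2 TPM with 1 library left out. All 10 genes stayed at 1 TPM in every setting run. The number past 2-fold was 2; it was 1 with DESeq2 size factors, 0 with total counts, 0 in the alignment-free table, 1 on log2(TPM + 1), 1 on log2(TPM + 0.1) and 4 at a 1.5-fold mark. The retained-intron share of the 10 genes' summed TPM was 12.4 ± 1.14%. Over all protein-coding genes with a mean of 1 TPM or more it was 38.0% in replicate 1 and 37.6% in replicate 2. For the 10 genes it was 6.12% of counts, 10.6% in the alignment-free table and 30.7% as the median over genes. With 1 library left out it was 11.6 to 13.2%. Without Hk3, which has no such isoform in the annotation, the share was 38.5%, an alternative chosen after seeing the data. The Hk3 share of hexokinase TPM was 90.2 to 93.9% with 1 library left out. The sign of the replicate ratio was kept in 10 of 10 genes under 5 alternatives and in 9 of 10 in the alignment-free table, where Eno1 changed. Ratios need both libraries, so none was left out there. No paired analysis was possible because there is 1 group. Counts of the other lists in the alignment-free table, chosen after seeing the data, stand beside the main ones above. At this depth the counting intervals of the Eno1 and Pgk1 ratios include 0.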

Other observations

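Several genes lie across the 10 described here. Gm17034, antisense within Hk2, had a log2 ratio of 0.82 beside the 0.65 of Hk2. Gm37975, on the same strand inside Pfkfb3, had 56 and 55 counts, and Gm10851, antisense to it, had 31 and 29, so neither followed the Pfkfb3 difference between replicates. Unc5a overlaps Hk3 by 34 bases.

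The programs gave Eno1b, a near-identical copy of Eno1, different counts. It had 3.24 counts in replicate 1 and 5.29 in replicate 2 by alignment, and 57.1 and 40.3 in the alignment-free table. Pklr, at 0 by alignment, had 2.11 and 2.54 TPM in that table.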
